A study of Mus musculus with 3 samples.

Results

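The genes described here encode the proteins of the mitochondrial ribosome. They were chosen as the protein-coding genes of GENCODE vM21 whose symbol is Mrpl or Mrps followed by a number, which gave 78 of the 52636 genes in the count table. FACS RNA-Seq was performed on tdTomato-positive hippocampal cells in 3 biological replicates, each pooled from 2 to 4 male mice at postnatal day 28 to 32. All mice were C57BL/6J and carried 1 copy each of Camk2a-Cre and of Ai14, a reporter that makes the red fluorescent protein tdTomato wherever Cre has acted. This was the only group, so levels and their spread between replicates could be measured and no condition could be compared.

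The labels call the cells CA1 pyramidal neurons, the excitatory neurons of one hippocampal field. The sort took live red cells from dissociated hippocampus, and the Camk2a promoter is known to be active in other excitatory forebrain neurons too. CA1 markers were all present, 7 of 7, at a summed level of 1549 to 1701 TPM (transcripts per 1000000 transcripts of nuclear protein-coding genes) over the replicates. Markers of other cells were present as well. The 5 dentate granule markers summed to 851 to 950 TPM, the 8 oligodendrocyte markers to 811 to 905 TPM and the 7 astrocyte markers, 6 of them detected, to 162 to 327 TPM. These sums lean on single genes. The highest marker had a mean of 450 TPM for CA1, 621 for dentate granule, 369 for oligodendrocyte and 139 for astrocyte. The median marker stood at 249, 73.8, 60.9 and 16.1 TPM in the same order. Of 5 interneuron markers 2 were detected, of 5 microglial markers 5, and of 5 endothelial markers 3. In bulk RNA, fewer cells of a type and less RNA per cell cannot be told apart, and the share of the values below that came from each cell type was not tested.

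The mitochondrial ribosome translates the few mRNAs of the mitochondrial genome, all of which encode subunits of the respiratory chain and ATP synthase. Its RNAs are made inside the organelle, while every one of its proteins is encoded in the nucleus, made in the cytosol and imported. It descends from a bacterial ribosome and has since gained many proteins that bacteria lack. Neurons depend heavily on oxidative phosphorylation, and inherited faults in these genes in people cause severe multisystem disease that often affects the brain. Of the members, 51 encode proteins of the large subunit (39S), which joins amino acids, and 26 encode proteins of the small subunit (28S), which reads the mRNA. Mrps30 and Mrps18a are counted in the large subunit, where their proteins sit despite their names. The last, Mrps36, keeps a ribosomal name but encodes a component of the 2-oxoglutarate dehydrogenase complex.

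The promoters of these genes are shown first, because words known to bind regulators of mitochondrial genes were more frequent in them than in other promoters. RefSeq windows of 300 bases on GRCm38.p6, from 250 bases before to 50 bases after a start, were found for 69 of the 78 genes, with 75 windows in all. The words searched on both strands were GCGCANGCG for NRF1 (nuclear respiratory factor 1), CCGGAAG for ETS factors such as GABP, AAGATGGC for YY1, and CCAAT for the CCAAT box. At least 1 of the first 3 words was present in 44 of the 69 genes, or 58.7% of windows, against 21.0% of the windows of other protein-coding genes and 16.0% of all windows. The stretches below lie upstream of the start and outside annotated exons, with the matched words in capitals. Mrpl43, on the reverse strand at chr19:45006443-45006557, holds 2 ETS words, and its level was 91.9 ± 1.59 TPM (SD, n = 3). Mrpl45, on the forward strand at chr11:97315466-97315715, holds 2 NRF1 words. Mrpl41, on the reverse strand at chr2:24975099-24975348, is the member with the highest level and holds none of these 3 words, but 2 CCAAT boxes, which read ATTGG on this strand.
Mrpl43: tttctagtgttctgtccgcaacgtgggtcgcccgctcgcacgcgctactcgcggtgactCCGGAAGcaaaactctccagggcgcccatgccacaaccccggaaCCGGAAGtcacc
Mrpl45: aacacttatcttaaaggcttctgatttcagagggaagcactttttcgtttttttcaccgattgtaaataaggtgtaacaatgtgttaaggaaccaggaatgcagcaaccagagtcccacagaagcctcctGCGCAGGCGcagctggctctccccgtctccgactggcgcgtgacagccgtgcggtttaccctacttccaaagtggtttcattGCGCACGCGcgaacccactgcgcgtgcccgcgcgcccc
Mrpl41: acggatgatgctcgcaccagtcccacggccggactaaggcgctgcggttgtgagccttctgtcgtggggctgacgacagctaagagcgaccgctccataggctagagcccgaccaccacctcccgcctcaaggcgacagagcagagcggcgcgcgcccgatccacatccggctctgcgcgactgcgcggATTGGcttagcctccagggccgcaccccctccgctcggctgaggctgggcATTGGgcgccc

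The ETS word was present in 26 genes, 34.7% of member windows, against 11.8% of the windows of other protein-coding genes. Its holders included Mrpl18, Mrpl27, Mrpl43, Mrps12, Mrps18a, Mrps18b and Mrps18c. The NRF1 word was present in 16 genes, 21.3% of member windows against 8.88%, among them Mrpl10 and Mrpl12 but not Mrpl11, the other gene of the stalk. The YY1 word was present in 12 genes, 16.0% of member windows against 3.07%, among them Mrps7, Mrps11 and Mrps24. The CCAAT box did not stand apart, with 40.0% of member windows against 37.8%. The median GC content was 58.7% in member windows, 57% in those of other protein-coding genes and 52.7% in all windows, and its part in the shares was not tested. A match in these windows is a description of sequence and no evidence of binding.

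**Figure D1:**
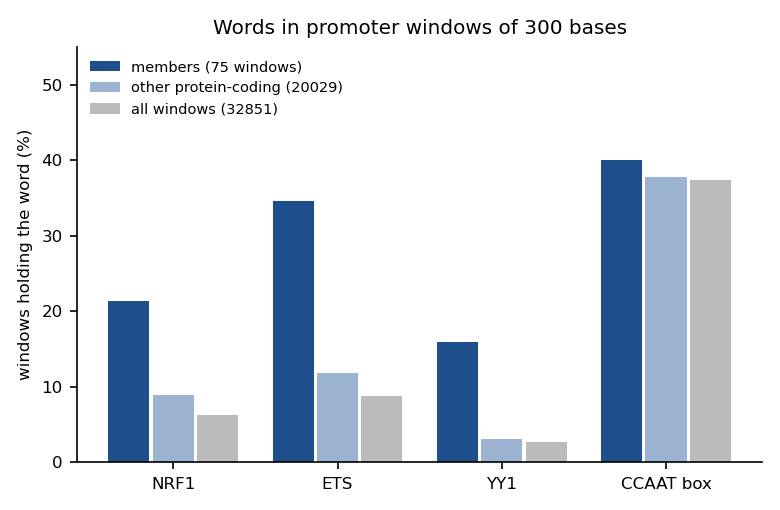
Share of RefSeq promoter windows of 300 bases (vertical axis, percent of windows) that hold each searched word on either strand, for the members, other protein-coding genes and all windows (bars). The members' bars are taller for NRF1, ETS and YY1 (21.3, 34.7 and 16.0%) and close to the others for the CCAAT box (40.0%).

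Another shared feature was the position of the genes. In 33 of the 78 members (42.3%), the start lay within 1000 bases of the start of a protein-coding gene that is read the other way from the opposite strand, overlapping starts included, against 10.7% of 22015 nuclear protein-coding genes. Some of the neighbours, picked here after they were seen, are genes of known mitochondrial or ribosomal role. Mrpl43 faced Twnk, the mitochondrial DNA helicase, and Mrpl36 faced Ndufs6 and Mrpl47 faced Ndufb5, both subunits of respiratory complex I. Mrps12 faced Sars2, the mitochondrial seryl-tRNA synthetase, and Mrpl49 faced Fau, which encodes a protein of the cytosolic ribosome. Mrps11 at chr7:78783119-78792989 and Mrpl46 at chr7:78775236-78783531 (GRCm38) faced each other and were the only such pair in which both genes were members. The partners' levels ranged widely, from 0.469 ± 0.0814 TPM for Eme1, beside Mrpl27, to 545 ± 45.6 TPM for Rab6a, beside Mrpl48 (SD, n = 3). Chromosome 11 held 11 members and chromosome 17 held 8. The share of all protein-coding genes on these chromosomes was not computed, so these counts do not show clustering.

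Mitochondrial ribosomal protein mRNAs were almost all detected. With at least 1 CPM (count per 1000000 counts) in each replicate, 77 of the 78 members were detected, against 56.9% of the other protein-coding genes. The exception was Mrpl53, which had 1, 0 and 0 counts. The libraries held 48159841, 25686630 and 15833075 assigned counts in replicates 1, 2 and 3, of which 78214, 41639 and 24192 fell on members. The lowest count of a detected member was 176, 94 and 44 in these replicates, held each time by Mrps36. Replicate 1 was thus the deepest and its values carry the least counting error.

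Levels between genes are given as TPM over nuclear protein-coding genes, computed from the counts and the merged exon length in the table. Noncoding and mitochondrial genes were left out of the denominator because a single 57-base noncoding feature, Gm23935, took 32.7%, 48.3% and 40.5% of TPM over all genes. On this scale the median member stood at 47.0, 46.8 and 46.8 TPM in replicates 1, 2 and 3, a mean of 46.9 ± 0.108 TPM (SD, n = 3). The median member exceeded 58.5% of detected nuclear protein-coding genes, whose own median was 37.5 ± 0.815 TPM. Together the members took 4196, 4189 and 4121 TPM, or 0.417% ± 0.00413 of nuclear protein-coding TPM (SD, n = 3). Their levels lay close to each other: 52 members (66.7%) were within 2-fold of their median, against 42.8% of detected nuclear protein-coding genes about theirs. The middle of the members spanned 25.3 to 71.7 TPM, a 2.84-fold quartile range.

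Mrpl41 had the highest level by a wide margin. This gene encodes a mitochondria-specific protein of the large subunit and lies at chr2:24974117-24975098 on the reverse strand (GRCm38). Its levels were 256, 290 and 300 TPM in replicates 1, 2 and 3, a mean of 282 ± 23.1 TPM from 1898, 1139 and 688 counts. Mrps21, the homolog of bacterial S21, followed with 142, 142 and 137 TPM, a mean of 141 ± 2.71 TPM. The lowest replicate of Mrpl41 lay above the highest of Mrps21, and the lowest of Mrps21 above the highest of every member after it. Mrpl10, which forms the base of the stalk that recruits elongation factors, had 114, 117 and 115 TPM. It too did not overlap the next gene, Mrpl28, with 103, 109 and 99.8 TPM. Beyond these genes the order is loosely fixed: 69 of the 77 pairs of neighbours in rank overlapped in their replicate ranges.

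The next 6 genes lay within a narrow band. Mrps12, whose bacterial homolog S12 sits at the decoding site, had 102, 110 and 93.9 TPM. Mrpl2, homolog of a core protein near the peptidyl transferase centre, had 108, 111 and 85.8 TPM, low in replicate 3. Mrps15, a homolog of bacterial S15, had 97.6, 100 and 104 TPM. In these 3 genes all replicate ranges overlapped. Mrpl27, whose bacterial homolog reaches toward the peptidyl transferase centre, had 114, 99.8 and 77.9 TPM. Mrpl4, whose bacterial homolog reaches deep into the exit tunnel, had 96.5, 99.7 and 91.7 TPM. Mrpl18, a protein of the central protuberance, had 86.7, 85.8 and 113 TPM. Among these 6 genes Mrpl27 was lowest and Mrpl18 highest in replicate 3, while in replicate 1 Mrpl27 was highest and Mrpl18 lowest.

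**Figure D2:**
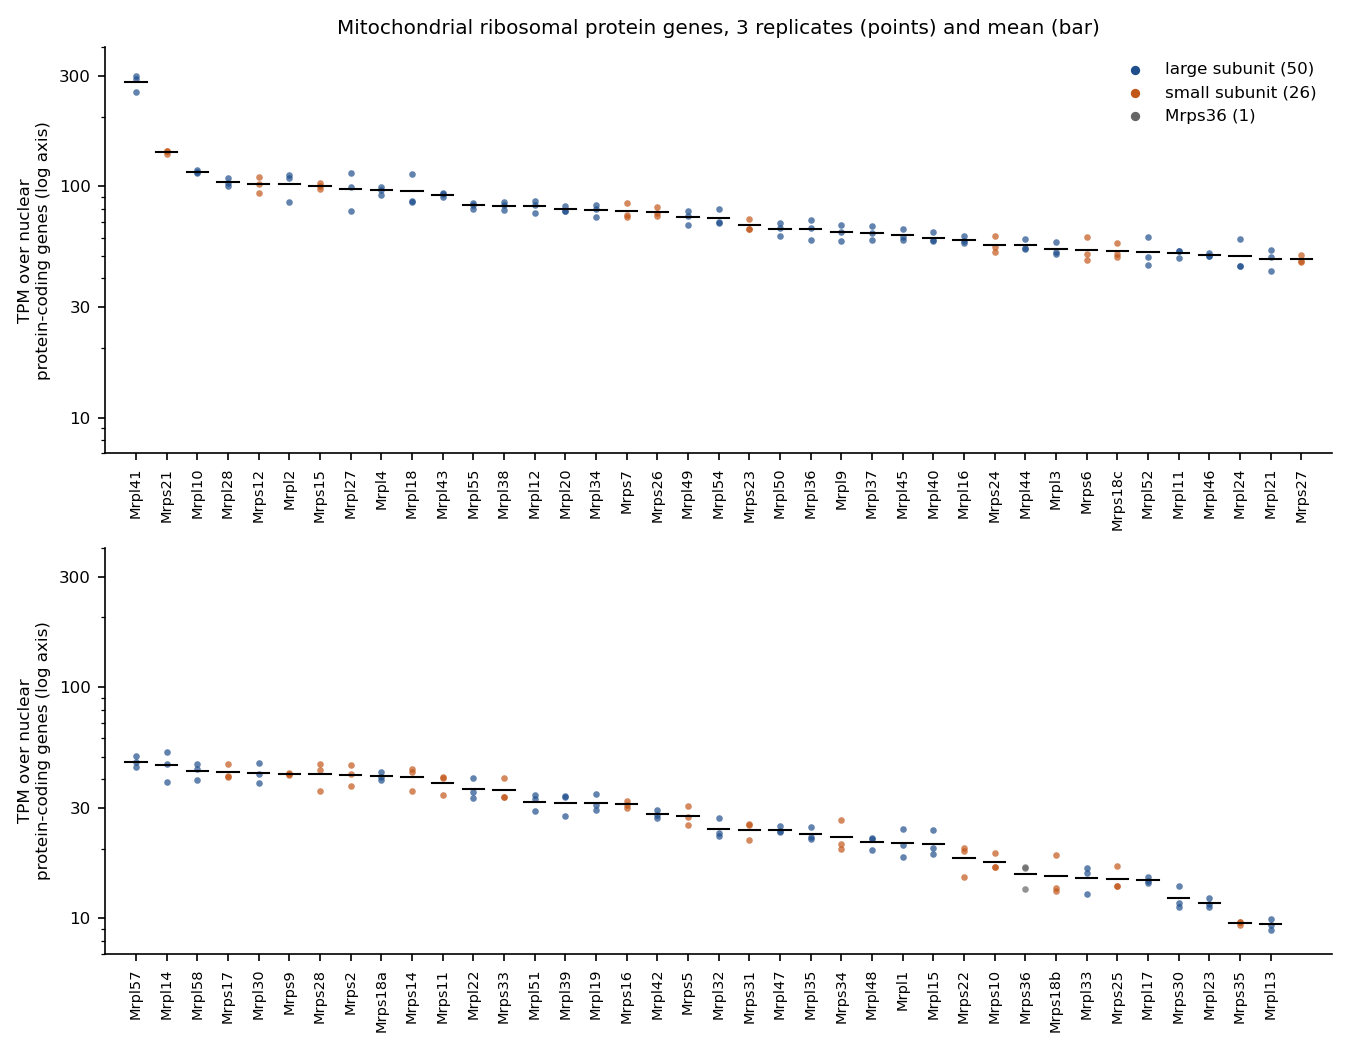
Level of each of the 77 detected members (horizontal axis, in order of the mean, continued in the lower panel) in TPM over nuclear protein-coding genes (vertical log axis), with a point for each replicate and a bar at the mean of 3. Mrpl41 stands apart at 282 TPM, and the other levels decline gradually to 9.41 TPM for Mrpl13.

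At the low end, Mrpl53 was almost without counts. A count of 3, the floor used here, would stand for 0.455, 0.860 and 1.47 TPM in replicates 1, 2 and 3. The annotation places Mrpl53 at chr6:83109040-83109939 (GRCm38), and 695 of its exon bases, 88.0%, lie also in exons of Gm42688, a protein-coding gene model on the same strand, which had 201, 129 and 52 counts. Reads in shared bases cannot be given to 1 of these genes, so the value says nothing firm about Mrpl53 mRNA. Its promoter window holds an ETS word.

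The 9 other lowest members all had counts well above the floor. Mrpl13, a homolog of bacterial L13, had 9.97, 9.33 and 8.94 TPM from 660, 327 and 183 counts. Mrps35, a mitochondria-specific small-subunit protein, had 9.66, 9.34 and 9.61 TPM. Mrpl23, which sits at the exit of the polypeptide tunnel, had 12.2, 11.2 and 11.6 TPM. The replicates of each of these genes lay close together. Mrps30 had 11.7, 11.2 and 13.8 TPM, Mrpl17 had 15.1, 14.5 and 14.3 TPM, and Mrps25 had 13.8, 16.8 and 13.9 TPM. Mrpl33 had 12.8, 16.6 and 15.7 TPM and Mrps18b had 18.9, 13.5 and 13.2 TPM. Mrps36, the member that is not ribosomal, had 16.6, 16.7 and 13.4 TPM. Among these genes, Mrpl17 did not overlap Mrps30, the next below it, and Mrpl23 did not overlap Mrps35.

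Many of the levels, high and low, depended on the length by which counts were divided. The merged exons of a gene include every annotated transcript, so a long alternative exon lowers the TPM of a short mRNA. With the longest protein-coding transcript in place of merged exons, Mrpl33, whose merged exons are 15.3 times as long as that transcript, moved from 15.0 to 166 TPM and from rank 71 to rank 2. Mrps10 moved from 17.5 to 91.6 TPM, Mrpl23 from 11.7 to 55.9 TPM, Mrpl13 from 9.41 to 44.1 TPM and Mrpl42 from 28.2 to 112 TPM. Mrps18a moved from 41.2 to 124 TPM and Mrps9 from 42.2 to 124 TPM. Mrpl41 stayed at rank 1, at 233 TPM, but 6 of the 10 highest members left the first 10. Mrpl10 moved from 115 to 83.2 TPM and from rank 3 to 18, Mrpl28 to rank 14, Mrps12 to rank 16, Mrpl2 to rank 17, Mrpl27 to rank 13 and Mrpl18 to rank 19. Merged exons were a median 1.31 times as long as the longest transcript among members, against 1.10 among nuclear protein-coding genes, and 11 members shifted by more than 20 ranks. The members' levels on the 2 scales correlated across genes with a Spearman rho of 0.691 (78 genes, which share libraries and counts). The members' level also correlated with merged length at rho -0.612, a value to which the division by length itself contributes.

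**Figure D3:**
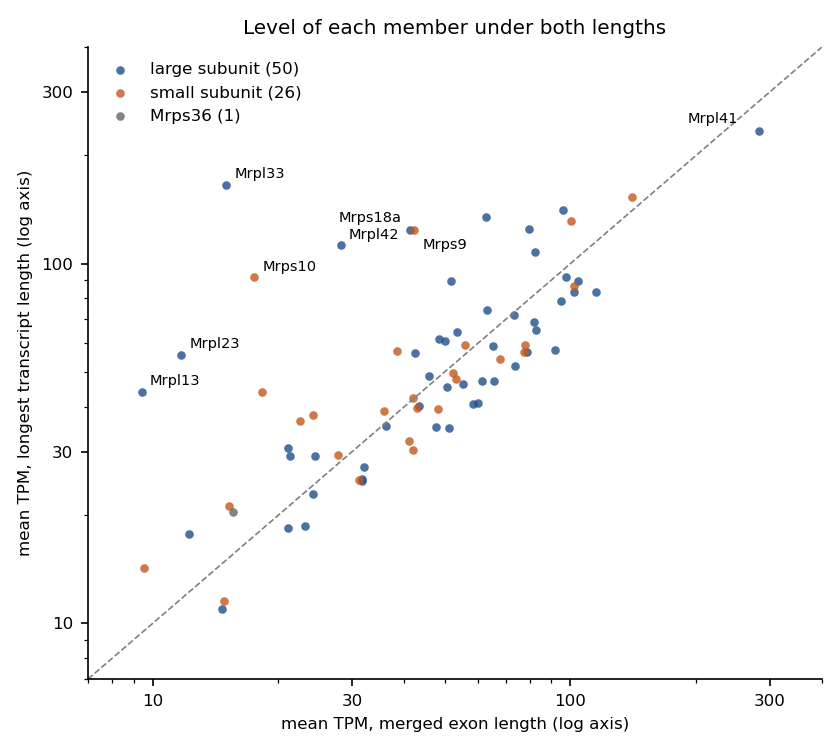
Mean TPM of each of the 77 detected members with merged exon length (horizontal log axis) and with the longest protein-coding transcript (vertical log axis), where the dashed line marks equal values. Mrpl33, Mrps10, Mrpl23, Mrpl13 and Mrpl42 lie far above the line, and Mrpl41 is highest on both axes.

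Exons shared with other genes limit a further set. At least 10% of exon bases were shared with another gene in 18 members (23.1%), against 12.4% of nuclear protein-coding genes. The largest shares after Mrpl53 were in Mrps34 (77.8%) and Mrps25 (69.8%), both small-subunit proteins mutated in human disease. Mrps34 had 26.6, 21.1 and 19.9 TPM. Its exons overlap those of Mapk8ip3 on the opposite strand, which had 25757, 13308 and 7043 counts, and those of Nme3 on the same strand, which was listed at 0 in every replicate. Whether the counting used strand is not given in the sources used here, so the counts of these overlapping genes are uncertain. Mrps25 overlaps Nr2c2 on the opposite strand over 4590 bases.

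The other 15 genes of this set shared 10.1% to 36.0% of their bases. Besides Mrpl10, Mrpl18 and Mrps18b, given above, 4 of them were large-subunit genes of middling or high level. Mrpl43 had 93.2, 90.1 and 92.4 TPM, Mrpl12 had 86.0, 76.3 and 83.0 TPM, Mrpl46 had 51.6, 49.9 and 50.1 TPM, and Mrpl14 had 46.5, 52.2 and 38.8 TPM. Among the small-subunit genes, Mrps7 had 84.6, 74.0 and 75.0 TPM, Mrps24 had 60.8, 54.8 and 51.8 TPM, Mrps6 had 50.8, 60.4 and 48.2 TPM, and Mrps27 had 47.4, 50.6 and 46.9 TPM. Among the genes just listed, Mrpl14 had a mean of 45.9 TPM, below the median member (46.9 TPM), and the means of the rest lay above it. The remaining 3 large-subunit genes were Mrpl24 with 59.4, 45.3 and 45.4 TPM, Mrpl19 with 30.9, 29.5 and 34.4 TPM, and Mrpl47 with 23.6, 24.0 and 25.1 TPM. Mrps18c, the last of the set, is given with its paralogs below.

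Mammalian mitochondria have 3 proteins related to bacterial S18, of which the ribosomal nomenclature counts Mrps18c as the homolog and names Mrps18a and Mrps18b as mitochondria-specific. Mrps18c had 57.1, 50.9 and 49.4 TPM, a mean of 52.4 ± 4.07 TPM (SD, n = 3). Mrps18a, whose protein belongs to the large subunit, had 39.8, 40.8 and 43.1 TPM, a mean of 41.2 ± 1.66 TPM. Mrps18b had a mean of 15.2 ± 3.20 TPM. The replicate ranges of the 3 paralogs did not overlap in this order, Mrps18c above Mrps18a above Mrps18b. With the longest transcript, Mrps18a at 124 TPM stood above Mrps18c at 49.6 TPM, so only the place of Mrps18b, at 21.2 TPM, was the same on both scales.

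By subunit, genes of the large subunit had the higher median. It was 52.5, 52.2 and 49.5 TPM in replicates 1, 2 and 3, a mean of 51.4 ± 1.64 TPM, against 41.4, 41.0 and 43.2 TPM, a mean of 41.9 ± 1.22 TPM, for the small subunit (SD, n = 3). The difference of medians on the log2(TPM + 1) scale was 0.34, 0.34 and 0.19, a mean of 0.29 ± 0.085. It was larger in all 3 replicates for the large subunit (exact two-sided sign-flip permutation test, p = 0.25, the smallest that 3 replicates allow). The small subunit held 3 of the 10 highest genes, Mrps21, Mrps12 and Mrps15, close to its share of the members (33.3%).

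Genes with a bacterial homolog and mitochondria-specific genes had similar medians. The 46 homologs had a median of 49.1 ± 1.74 TPM and the 31 mitochondria-specific genes of 46.3 ± 1.23 TPM (SD, n = 3). The difference on the log2(TPM + 1) scale was 0.03, 0.14 and 0.08 (mean 0.08 ± 0.051, exact permutation p = 0.25), and it changed sign to -0.14 without the genes that share at least 10% of exon bases. With Mrps18a and Mrps18b counted as homologs it was -0.039 (exact permutation p = 1.0). The lowest group on this scale was the 10 mitochondria-specific genes of the small subunit, with a median of 23.4 ± 2.52 TPM, which include Mrps34, Mrps25, Mrps18b and Mrps35. Mrps34, Mrps25, Mrps18b and Mrps27 of this group share 77.8%, 69.8%, 30.5% and 24.2% of their exon bases with another gene. The part of these shared bases in the low median was not tested. The 16 small-subunit homologs had a median of 44.8 ± 1.60 TPM, while homologs and mitochondria-specific genes of the large subunit both had a median of 51.3 TPM. With the longest transcript the 10 genes had a median of 37.5 TPM, against 53.8 TPM for the small-subunit homologs. On that scale the large subunit differed too, with 58.1 TPM for homologs and 47.1 TPM for mitochondria-specific genes.

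Within the ribosome, lists were made by place in the structure. The stalk, which recruits translation factors, had the highest median of the 4 lists, 81.8 ± 5.0 TPM over Mrpl10, Mrpl11 and Mrpl12 (SD, n = 3). The central protuberance, 7 genes including Mrpl18, Mrpl27 and Mrpl38, had a median of 60.0 ± 3.10 TPM. The 7 genes listed around the exit of the tunnel and the membrane, a list without Mrpl4, among them Mrpl45, which anchors the ribosome to the inner membrane, had a median of 36.2 ± 3.77 TPM. Mrpl45 itself had 60.6, 65.1 and 58.4 TPM, the highest mean of that list with merged exons, while Mrpl24 was higher with the longest transcript (60.8 against 47.3 TPM). On that scale the medians were 68.6 TPM for the stalk, 45.5 TPM for the central protuberance and 46.2 TPM around the tunnel exit, so that the last 2 changed places. The 4 genes of the decoding region and mRNA channel, Mrps2, Mrps5, Mrps12 and Mrps24, had a median of 48.8 ± 1.76 TPM. All 14 members whose human counterparts are known disease genes were detected, with a median of 43.0 ± 2.24 TPM, and they ranged from Mrps25 to Mrpl12. The lists are short and most of their genes overlapped in level with those of other lists.

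The level of the mitochondrial ribosome was also set beside that of the cytosolic ribosome. The 77 cytosolic ribosomal protein genes, all detected, had a median of 107, 111 and 106 TPM in replicates 1, 2 and 3. The difference from the members on the log2(TPM + 1) scale was 1.17, 1.23 and 1.16, a mean of 1.19 ± 0.036 or 2.27-fold. Cytosolic genes were higher in 3 of 3 replicates (exact permutation p = 0.25). In sum the cytosolic list held 3.21 ± 0.0432 times the TPM of the members. With the longest transcript, the difference of medians was 1.77. Cytosolic ribosomal proteins have many processed pseudogenes, and how reads that match several copies were counted is not given in the sources used here.

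The 74 nuclear genes of the respiratory chain and ATP synthase stood further above the members. These proteins assemble with the products of the mitochondrial ribosome. Their median was 191, 198 and 183 TPM in replicates 1, 2 and 3. The difference from the members was 2.00, 2.05 and 1.95 on the log2(TPM + 1) scale, a mean of 2.00 ± 0.054 or 4.00-fold (exact permutation p = 0.25). On a CPM scale, without division by length, the difference was 1.26. Respiratory chain genes were shorter (median merged length 1688 bases, against 2214 for the members), and the part of length in this change was not tested. The comparisons with the cytosolic ribosome and the respiratory chain were 2 of 4 comparisons of lists tested in the same way. Each gave the smallest p that the design allows.

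**Figure D4:**
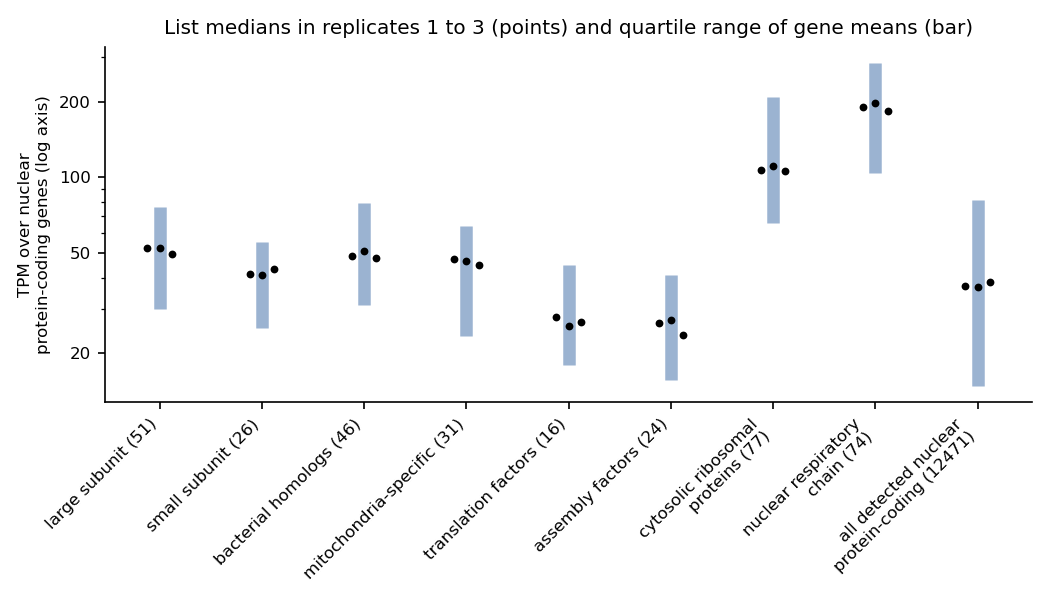
Median level of each gene list in replicates 1, 2 and 3 (3 points, left to right) in TPM over nuclear protein-coding genes (vertical log axis), with bars from the lower to the upper quartile of the gene means and the number of genes in brackets. Both subunits of the mitochondrial ribosome lie near the median of all detected genes (37.5 TPM), below the cytosolic ribosome (107.8 TPM) and the respiratory chain (190 TPM) and above the factors.

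Other proteins of the mitochondrial ribosome have symbols of another kind. Chchd1 had 94.5, 106 and 99.8 TPM and Aurkaip1 had 95.3, 103 and 78.4 TPM, near the top of the members. Dap3, a GTP-binding protein of the small subunit, had 58.5, 62.0 and 54.5 TPM. Ptcd3, a pentatricopeptide-repeat protein, had 36.6, 34.4 and 35.9 TPM, and Gadd45gip1, of the large subunit, had 34.4, 31.1 and 28.4 TPM, with 42.0% of its exon bases shared with another gene. All 5 lay within the range of the members. The ribosomal RNAs of the organelle, mt-Rnr1 and mt-Rnr2, had 203765, 155754 and 128066 and 604689, 333676 and 278425 counts. Libraries were made from poly(A)-selected RNA, so these counts do not give the amount of ribosomal RNA.

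Factors that build and run the ribosome had a lower median than its proteins. All 40 factors matched were detected, 16 of 17 translation factors listed and 24 assembly factors, with a median of 26.2 ± 0.744 TPM (SD, n = 3). Mtif2, an initiation factor, had the highest mean with merged exons, from 75.9, 92.4 and 93.5 TPM, though Rbfa and Dhx30 exceeded it in replicate 1. With the longest transcript, Dhx30 (129 TPM) and some further factors exceeded Mtif2 (88.8 TPM). The helicase Dhx30 had 78.1, 82.2 and 73.7 TPM, Rbfa, which helps the small subunit mature, had 84.2, 73.8 and 70.4 TPM, and Ngrn had 72.6, 75.7 and 75.3 TPM. These 4, the highest factors by mean with merged exons, exceeded the median member, as did some further factors. At the low end, the GTPase Gtpbp10 had 7.13, 7.72 and 7.61 TPM, the rRNA methyltransferase Nsun4 had 8.64, 8.05 and 8.67 TPM, and the methyltransferase Mettl15 had 9.49, 9.55 and 9.54 TPM. Slirp, with 4.71, 3.65 and 4.12 TPM, shares 97.8% of its exon bases with another gene and Rbfa 43.9%, so both values are uncertain.

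Between replicates the members varied little. The median coefficient of variation (CV) of size-factor normalized counts was 8.65% over the 77 detected members, against 8.76% over all detected protein-coding genes. Counting error alone was taken as the square root of the mean, over the replicates, of 1 over the count. It would give a median of 4.80% for the members. Of these, 66 of 77 (85.7%) exceeded their own counting error, against 85.6% of all detected protein-coding genes. A difference of at least 1.5-fold between the highest and the lowest replicate was reached by 2 members, 2.60%, against 10.7% of the other detected protein-coding genes. The biological CV fitted by edgeR over 18714 genes, which pulls each gene toward those of like abundance, had a median of 0.119 over the members and 0.141 over all genes.

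The members past 1.5-fold were Mrpl27 and Mrps18b. Mrpl27 had 528, 451 and 334 normalized counts, 1.58-fold from highest to lowest. Mrps18b had 185, 130 and 120 normalized counts, 1.54-fold, and the largest CV of the members, 24.2%. Mrps34 (257, 199 and 179 normalized counts, 1.44-fold), Mrpl14 (207, 227 and 160, 1.42-fold) and Mrpl24 (628, 468 and 446, 1.41-fold) were next. In all 5 genes the lowest value was that of replicate 3. At the other extreme, Mrps18a had 689, 691 and 692 normalized counts, a CV of 0.216% that is below its counting error of 3.98%. Mrpl47 (489, 486 and 483), Mrps26 (1521, 1527 and 1542), Mrps15 (775, 779 and 765) and Mrpl40 (329, 326 and 336) also differed by less than counting error.

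The members leaned to 1 side in replicate 3. Normalized counts were highest in replicate 1 for 37 members (48.1%, against 41.9% of other detected protein-coding genes), in replicate 2 for 27 (35.1%, against 27.4%) and in replicate 3 for 13 (16.9%, against 30.7%). They were lowest in replicate 1 for 11 members (14.3%, against 20.4%), in replicate 2 for 17 (22.1%, against 34.0%) and in replicate 3 for 49 (63.6%, against 45.5%). The median member deviated from its own mean by 0.06, 0.00 and -0.09 on the log2 scale in replicates 1, 2 and 3, and the median detected protein-coding gene by 0.04, -0.01 and -0.03. The number highest in replicate 3 was 12 with TMM factors and 13 with total counts. The shift was small beside the spread of single members, which the plot of deviations shows. Endothelial markers went the other way and were highest in replicate 3, at a summed 13.0, 23.9 and 80.6 TPM. So were microglial markers, at 37.5, 47.0 and 53.8 TPM, and astrocyte markers, at 259.8, 162 and 327 TPM. Summed interneuron markers were too, at 84.3, 67.6 and 90.7 TPM. Summed CA1 markers were lowest in replicate 3, at 1611, 1701 and 1549 TPM, as were oligodendrocyte markers, at 821, 905 and 811 TPM. Summed dentate granule markers were highest in replicate 1, at 950, 851 and 900 TPM. The median marker went another way in some lists. It was highest in replicate 3 for oligodendrocyte (66.5, 47.4 and 68.7 TPM) and dentate granule markers (75.8, 67.4 and 78.2 TPM). For interneuron markers it was highest in replicate 1 (2.31, 0.539 and 1.72 TPM). For CA1 markers it was lowest in replicate 3, and for endothelial, microglial and astrocyte markers highest there, like the sums. Replicate 3 also had the lowest depth. The part of cell types and of depth in the shift was not tested.

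**Figure D5:**
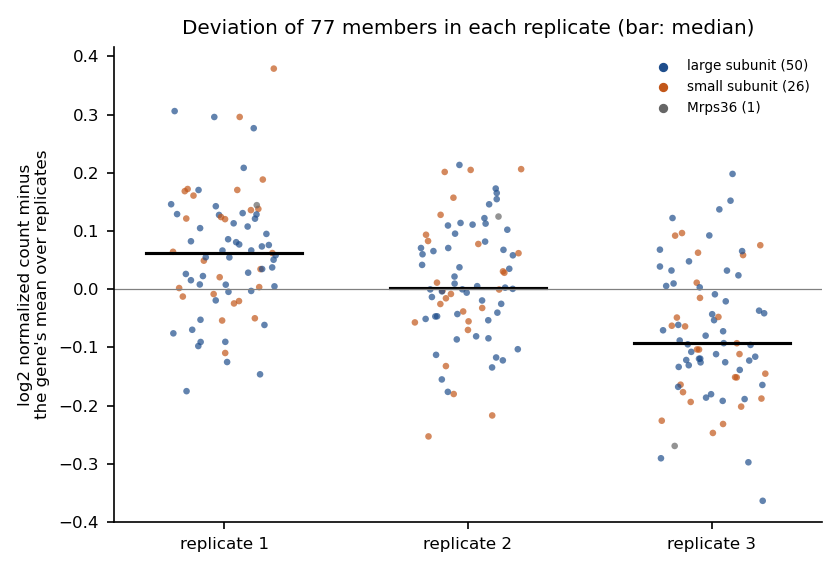
Deviation of each of the 77 detected members from its own mean over replicates (vertical axis, log2 normalized counts) in each replicate, a point for each gene and a bar at the median. The medians are 0.06, 0.00 and -0.09 in replicates 1, 2 and 3, and the points of all 3 replicates overlap widely.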

How the data were processed

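FACS RNA-Seq counts were analysed for 3 replicates of tdTomato-positive cells. The values are raw counts per gene, deposited by the authors with no normalization, beside the length of the merged exons in bases. Libraries were poly(A)-selected and sequenced as 150 bp paired-end reads. The submitters' processing notes name STAR, featureCounts, mm10 and GRCm38. Their versions, the strand setting and the treatment of multimapping reads are not given in the sources used here. Replicates were taken as biological because the study's methods describe separate pools of mice, and 0 sample columns were left out.

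Gene names were matched to GENCODE vM21, which named 52489 of the 52636 genes and gave the table's length for 71 of the 78 members. This reference may not be the one the authors used. TPM and CPM were computed from the counts. Size factors for normalized counts, by the median of ratios, were 1.78, 0.963 and 0.592. Log2 values used a pseudocount of 1. No gene was removed before TPM, and a gene was called detected where every replicate reached 1 CPM. Dispersion was fitted with edgeR 4.0.16 in R 4.3.3 over genes that pass its filter, with DESeq2 1.42.0 as an alternative. Other steps ran in Python 3.11.15 (pandas 2.3.3, scipy 1.17.1, numpy 2.4.6) and figures in matplotlib 3.10.9. Scripts were checked on simulated data. List medians were compared by an exact sign-flip permutation test over replicates, whose smallest two-sided p is 0.25. Values after ± are the SD over the 3 replicates, and floors cover counting error only.

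The members and lists were chosen with earlier results of these data known. Named genes were the 10 highest and 10 lowest members, those not detected, the 5 most and 5 least variable, Mrps36, the S18 homologs, members that share at least 10% of exon bases, 5 subunits with other symbols, mitochondrial ribosomal RNAs and up to 8 factors. Other members are named as examples. Alternatives were the unit, length, pseudocount, normalization, filter, fold threshold, dispersion tool, overlapping genes and leaving out each replicate. The longest-transcript levels of single genes, its combination with the removal of overlapping genes, the list medians on that scale, the other class for Mrps18a and Mrps18b, and the factor counts without a replicate were added after seeing the data. A planned comparison of the 3 S18 homologs' protein sequences was not run.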

Additional observations from a re-analysis of the deposited data

Results flagged for a closer look

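Counts also appeared on processed pseudogenes of members, which are not protein-coding and enter no comparison above, and these were noted because 4 of the 5 exceeded the limit of 3 counts. The highest count over replicates was 370 for Mrpl23-ps1, 313 for Mrpl48-ps, 120 for Mrps36-ps1 and 31 for Mrps36-ps2, while Mrps36-ps3 was listed at 0. Mrps36-ps1 had 120, 85 and 28 counts in replicates 1, 2 and 3, against 176, 94 and 44 for Mrps36 itself. Mrpl23-ps1 had 370, 210 and 129 counts, against 498, 242 and 146 for Mrpl23, and Mrpl48-ps had 313, 159 and 105 counts, against 1512, 792 and 416 for Mrpl48. How reads that match a gene and its copy were counted is not given in the sources used here, and the levels of Mrps36, Mrpl23 and Mrpl48 are uncertain for that reason. There is 1 group and hence no difference between groups, and groups of 3 are too small for a search for outlying samples.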

How the results depend on the processing

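No paired analysis was possible because there is only 1 group. Of 94 alternative values for 21 results, 74 kept the direction of a tested difference or, for levels and counts, stayed near the value given, 18 moved and 2 reversed. The reversals were of the difference of bacterial homologs and mitochondria-specific genes, which became -0.14 on the log2(TPM + 1) scale without genes that share at least 10% of exon bases and -0.039 with Mrps18a and Mrps18b counted as homologs. It was 0.35 with the longest transcript and 0.26 with both changes. The cause was not tested. The summed level of the members was 1311 with TPM over all genes, 1591 as CPM, 4658 with the longest transcript and 3242 without the 18 genes that share at least 10% of exon bases, the last since fewer genes are summed. The median member was at 14.7 TPM over all genes, whose total includes the 57-base noncoding feature, and at 48.6 TPM with the longest transcript. The number of members past the fold threshold was 0 at 2-fold instead of 2, and between 0 and 2 without each replicate in turn. It was 0 without replicate 1 and 0 without replicate 3. The share of all detected protein-coding genes at these settings was not computed, so these counts do not set the members apart from other genes. The median biological CV of the members was 0.0743 with the gene-wise estimate of DESeq2, and between 0.105 and 0.144 without each replicate in turn. No comparison of lists can pass a threshold of 0.05 with 3 replicates. Every member but Mrpl53 had at least 44 counts in each replicate, and Mrpl53 is limited by its shared exon bases. With the longest transcript, 7 of 8 further list medians moved by more than their SD, among them that of the small-subunit mitochondria-specific genes, from 23.4 to 37.5 TPM.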
